A study of Rattus norvegicus with 36 samples.

Results

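Soleus muscle of spinal cord injured rats after 5 days of treadmill training was compared with soleus of untrained rats taken at about the time when that training began. The comparison sets the 6 arrays of the SCI14d + TM group against the 6 arrays of the SCI8d group, 12 of the 36 arrays of the series, chosen by the day and training given in the sample labels. The rats were female Sprague Dawley adults aged 16 weeks, and all of both groups had a moderate contusion injury at T8, in the thoracic cord. SCI14d + TM rats stepped on a treadmill from day 7 with 2 sessions of 20 min a day for 5 days and manual body weight support as needed, and the left soleus was taken on day 14, 8 h after the last session. SCI8d rats were injured in the same way, were not trained, and gave their muscle on day 8. The SCI14d group (injured, untrained, day 14) and the uninjured CTR group, with 6 arrays each, are given beside them. Each rat gave 1 array (Affymetrix Rat Genome 230 2.0), and values are the linear signals of Microarray Suite. The groups of this comparison differ in the day and in the training. In their difference alone the share of either cannot be told apart, so it is also given as its training step (SCI14d + TM minus SCI14d) and its untrained step (SCI14d minus SCI8d), which add up to it.

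The soleus is a slow, oxidative postural muscle. It draws most of its energy from fatty acids, which are split from blood lipids by lipoprotein lipase, enter the fiber through carriers such as CD36, are bound in the cytosol by FABP3, and are coupled to coenzyme A and burned in mitochondria. When load and nerve drive are lost the muscle wastes, and genes of oxidative metabolism are commonly repressed while those of protein breakdown and tissue remodeling are induced. Regrowth under renewed load requires protein synthesis, which depends on ribosomes, translation factors and chaperones that fold new proteins such as actin and tubulin.

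Arrays were alike in overall signal, which the scaling of each array to the same mean largely sets in advance. The median signal was 192 to 216 in SCI14d + TM and 190.3 to 213 in SCI8d, and the 10 markers that define soleus muscle were at high signals in both groups. SCI8d replicate 1 stood apart. Its log2 signals correlated on average at 0.910 with the other SCI8d arrays, against 0.937 to 0.949 for each of those 5, and at 0.942 with CTR. The array has no label that sets it apart and was kept. Because it bears on most results, values without it are given beside them. It was picked out by its values and also correlated better with SCI14d + TM (0.927) than with its own group. Leaving it out therefore tends to widen the difference, and calls gained without it are no separate support. SCI14d + TM replicate 1 also correlated better with CTR (0.946) than with its own group (0.933). GAPDH 3′ to 5′ signal ratios, a sign of RNA quality, were 1.04 to 1.33 in SCI14d + TM and 1.06 to 1.13 in SCI8d, with the 1.33 in SCI14d + TM replicate 1. In SCI14d, which enters both steps, they were 1.06 to 1.35, with the 1.35 in replicate 4. That array also had the lowest mean correlation with its own group of all arrays, 0.8965, and was kept.

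Between SCI14d + TM and SCI8d, the fatty acid binding protein Fabp3, the glycerol channel Aqp7 and the coenzyme A synthesis kinase Pank1 were among the genes that rose, and subunits of the CCT chaperonin, RNA-binding proteins, Smad3 and the NAD-synthesis kinase Nmrk2 were among the genes that fell. In limma, which tested log2 signals in a linear model of all 36 arrays, 59 of 31042 probe sets (0.190%) passed an adjusted p of 0.05. Of these, 34 were higher (0.110%) and 25 lower (0.0805%) in SCI14d + TM. The median log2 difference of all probe sets was 0.021, and 52.2% of them lay above 0. At an unadjusted p of 0.05 there were 2044 higher (6.58%) and 1769 lower (5.70%). The 59 comprised 42 probe sets of 41 named genes and 17 with no gene symbol. Signals of both groups did not overlap for 41 of the 59, 27 of them higher and 14 lower, against 0.612% of all probe sets higher without overlap and 0.532% lower.

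Without SCI8d replicate 1, which was picked out by its values, the count was 418 (1.35%). Of these 212 were higher (0.683%) and 206 lower (0.664%), and each of the 59 was included. Leaving out any one of the other 5 SCI8d arrays gave 10, 27, 31, 11 and 13 calls for replicates 2 to 6, and leaving out the SCI14d + TM arrays gave 32, 11, 36, 9, 33 and 16 for replicates 1 to 6. The call stood in every one of these 12 fits for 9 probe sets, those of Cfi, Mdk, Cobll1 and Trak1 and 5 with no symbol. Of the called probe sets 57.6% were higher. Scaling each array to its Gapdh signal moved the median of all probe sets to 0.24 and this share to 97.1%, so the balance of higher and lower calls depended on that choice.

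Genes of fat handling were among those that rose. Fabp3, the fatty acid binding protein of heart and muscle, and Aqp7, a membrane channel for the glycerol that is released when stored fat is split, were several-fold higher in SCI14d + TM. Pank1, a pantothenate kinase that starts the synthesis of coenzyme A, Acot7, a thioesterase that frees fatty acids from coenzyme A, and Bdh2, a cytosolic hydroxybutyrate dehydrogenase, also rose. Fabp3 signals were 28746 to 41461 (median 32669.6) in SCI14d + TM and 6648 to 20912 (median 9035) in SCI8d. Each trained rat lay above each SCI8d rat, with a log2 difference of 1.64 ± 0.37 SE at an adjusted p = 0.0479. In SCI14d the signals were 6837 to 34332 (median 16429) and in CTR 39106 to 57792 (median 44424), so only 1 of the 6 untrained day 14 rats reached the range of the trained ones. That single-rat pattern is visible in the plot of signals per rat. Aqp7 signals were 624 to 2078 (median 1424) in SCI14d + TM and 77.9 to 778 (median 197) in SCI8d, where the highest value was that of replicate 1. The groups overlapped through that array alone, and the log2 difference was 2.55 ± 0.54 (SE, adjusted p = 0.0437), or 2.91 without it (adjusted p = 0.00539).

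Pank1 signals were 1031 to 2069.6 (median 1669) in SCI14d + TM and 319.8 to 1433 (median 496) in SCI8d, with replicate 1 again the highest of SCI8d, and the log2 difference was 1.51 ± 0.29 (SE, adjusted p = 0.0204). In CTR the signals were 2091 to 3028 (median 2447), above all trained rats. Acot7 signals were 2056 to 4818 (median 2406) in SCI14d + TM and 1138 to 1580.3 (median 1394) in SCI8d, without overlap (a log2 difference of 0.99 ± 0.20 SE at an adjusted p = 0.0332). Bdh2 had a log2 difference of 1.28 ± 0.28 SE at an adjusted p = 0.0437. Calls of these genes were often lost when an array was left out. Of the 12 fits with an array left out, Fabp3 was called in 2, Aqp7 in 4, Pank1 in 7, Acot7 in 7 and Bdh2 in 1. The log2 differences of these genes stayed positive in all 12 fits, so a lost call does not show that few rats carried the difference.

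**Figure D1:**
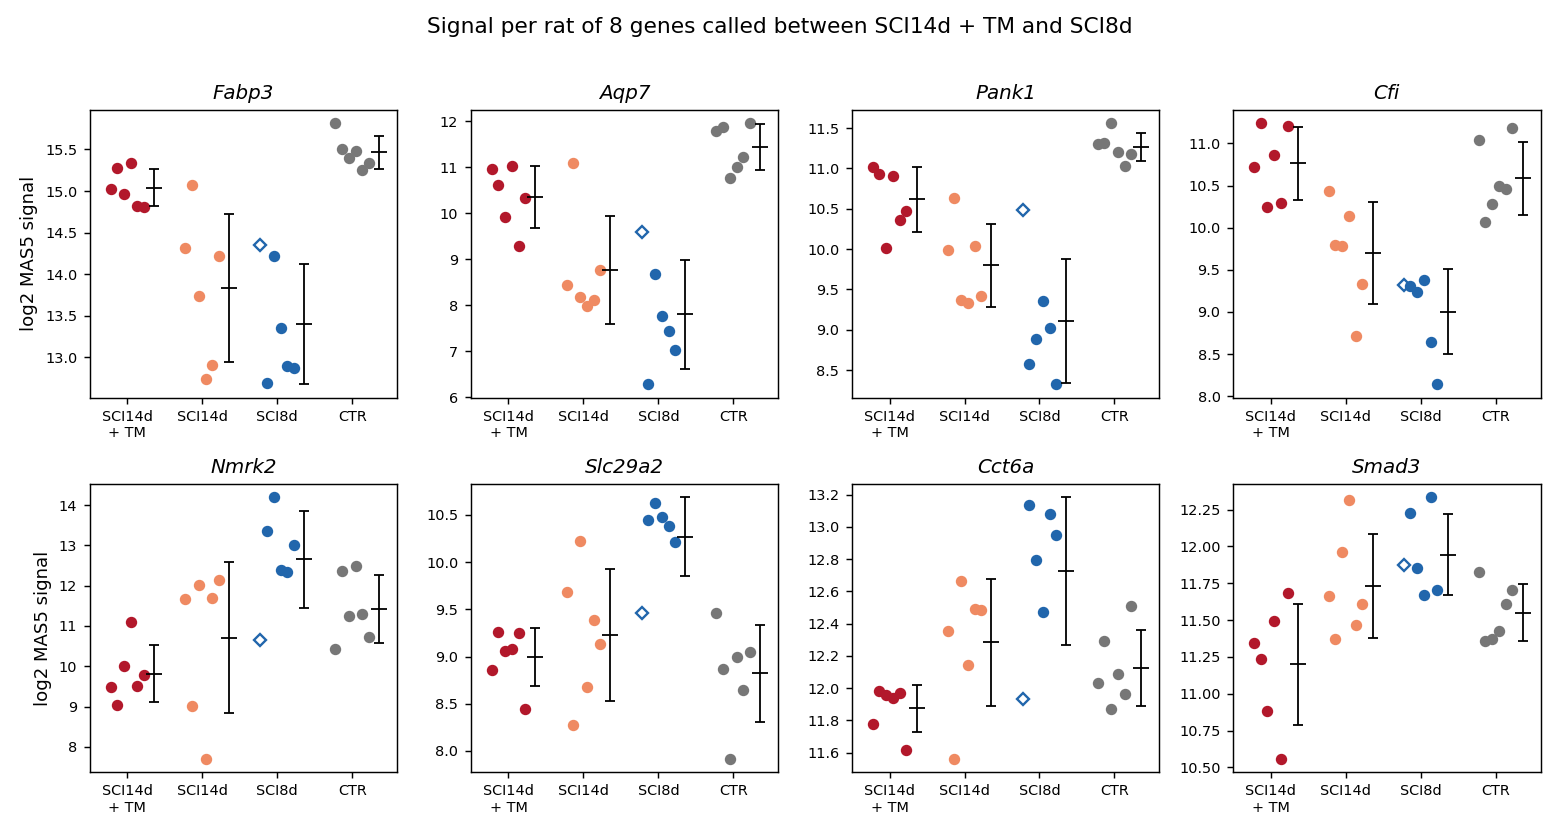
log2 MAS5 signal (y axis, a separate range in each panel) of 8 called genes in SCI14d + TM, SCI14d, SCI8d and CTR. Each point is 1 rat, the open diamond is SCI8d replicate 1, and the bar gives mean ± SD (n = 6). The upper 4 genes are higher and the lower 4 lower in SCI14d + TM than in SCI8d, and the open diamond lies toward the trained rats for Fabp3, Aqp7, Pank1, Nmrk2, Slc29a2 and Cct6a.

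The wider fat-burning machinery was higher on average but, gene by gene, mostly short of the threshold. All 20 measured genes of mitochondrial fatty acid oxidation had positive differences, with a median log2 of 0.74 against 0.021 over all probe sets. None was called, 14 passed an unadjusted p, and 8 were called without SCI8d replicate 1 (median 0.85). The smallest p belonged to Cpt2, which releases fatty acids to the mitochondrial matrix, Acot2, a mitochondrial thioesterase, Slc25a20, the carnitine carrier, and Etfdh, which passes their electrons to the respiratory chain. Cpt2 signals were 4114 to 9648 (median 7013) in SCI14d + TM and 2330.2 to 4949 (median 2983) in SCI8d, a log2 difference of 1.09 (SE 0.28, adjusted p = 0.0929). The groups overlapped only through SCI8d replicate 1, without which the value was 1.24 (adjusted p = 0.0251). Corresponding log2 differences were 1.12 for Acot2, 0.76 for Slc25a20 and 0.96 for Etfdh, with adjusted p = 0.0942, 0.121 and 0.137 in that order, and 0.0218, 0.0368 and 0.0224 without that array.

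Of 17 genes of fatty acid uptake and storage 15 had positive differences, and the median log2 was 0.83. Fabp3 was the 1 called with all arrays, 10 passed an unadjusted p, and 6 were called without SCI8d replicate 1. Slc27a1, a fatty acid transport protein, had signals of 1801 to 3802 (median 2719.5) in SCI14d + TM and 1174 to 1602 (median 1371) in SCI8d, which did not overlap, but its log2 difference of 0.93 had an adjusted p = 0.0786. For Acsl1, which couples fatty acids to coenzyme A, the difference was 0.96 (adjusted p = 0.0874), a second probe set gave 1.03 (adjusted p = 0.0738, and 0.0156 without SCI8d replicate 1), and a dim one gave -0.48. The fatty acid carrier Cd36 had 11541 to 22181 (median 18969) in SCI14d + TM and 6389 to 18605 (median 8159.8) in SCI8d, a difference of 0.94 (adjusted p = 0.118, and 0.0167 without SCI8d replicate 1). Lpl, the lipoprotein lipase that the study followed, had 18639 to 35534 (median 25469) in SCI14d + TM, 7509 to 20382 (median 12900.4) in SCI14d, 10230.2 to 19992 (median 14982) in SCI8d and 27268 to 33136 (median 31119) in CTR. Its difference of 0.88 did not pass (adjusted p = 0.139), its training step was 0.98 and its untrained step -0.10.

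Averaged over its genes, the level of the oxidation list relative to CTR was -0.43 ± 0.41 in SCI14d + TM, -0.81 ± 0.52 in SCI14d and -1.12 ± 0.40 in SCI8d, and that of the uptake list was -0.44 ± 0.39, -0.67 ± 0.37 and -1.18 ± 0.55 in the same order (log2, SD, n = 6 each). SCI8d replicate 1 was the highest of its group on both lists, at -0.37 and -0.12. Fat cells also hold several of these genes. Of 11 adipocyte markers 10 had positive differences (median 0.48, 1 called, which was Aqp7, and 2 at an unadjusted p), and their summed signal was 18150.3 to 43060.1 in SCI14d + TM, 12600.2 to 17489 in SCI8d and 21552 to 51812 in CTR. Averaged over the markers, trained replicates 4 and 6 lay at 0.50 and 0.41 relative to CTR. The other trained rats lay at -1.39 to -0.74, within the SCI8d range of -1.60 to -0.66. Adipoq, which defines fat cells, had a log2 difference of 0.30 (adjusted p = 0.902), and Plin1, the coat protein of their fat droplets, 0.48 (adjusted p = 0.790). The part of fat tissue in the fatty acid results was not tested. In whole muscle more cells of a type and more RNA per cell cannot be told apart.

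**Figure D2:**
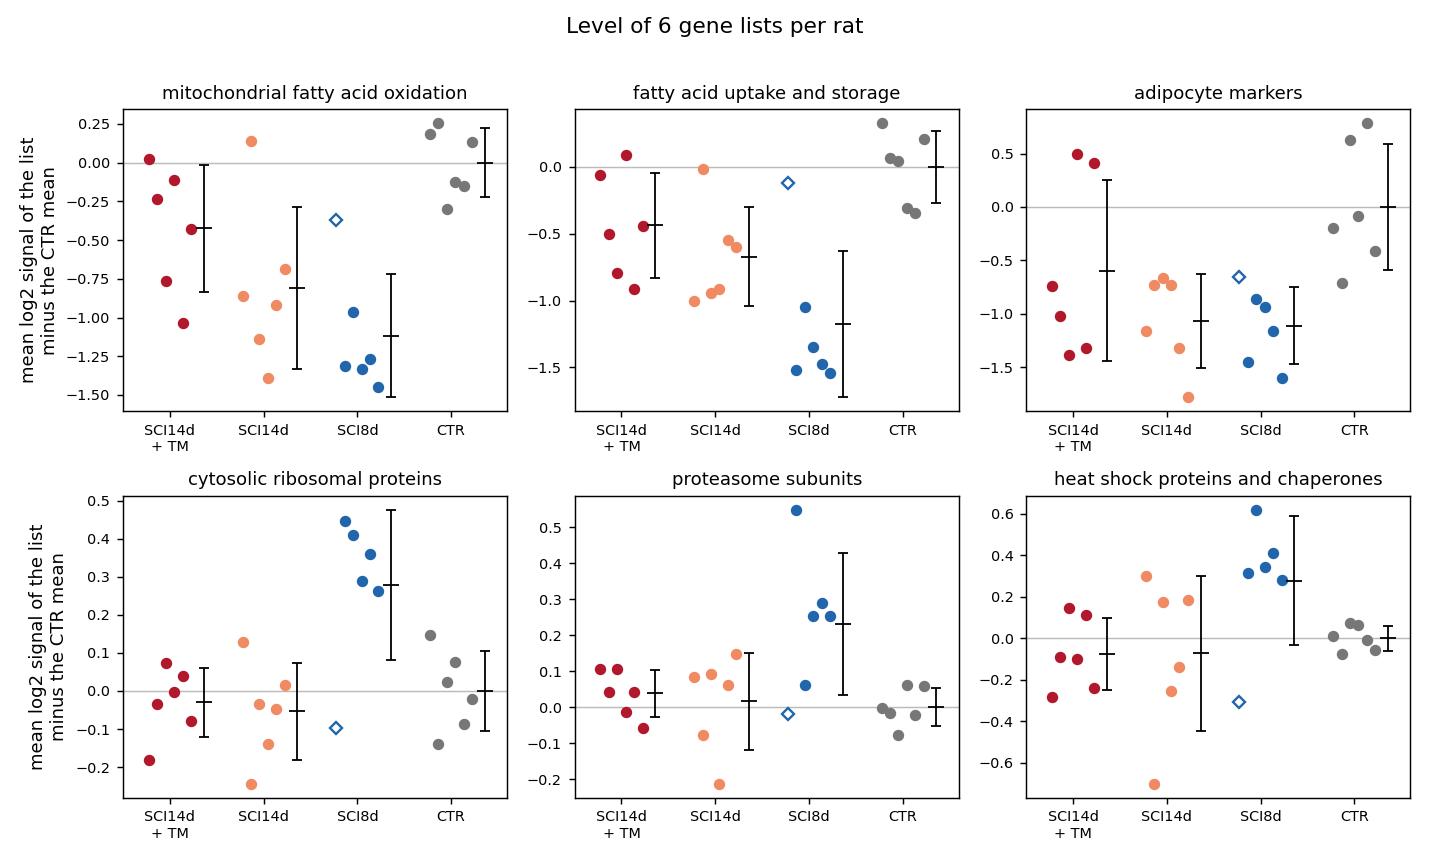
Mean log2 signal of the genes of 6 lists minus the CTR mean (y axis, a separate range in each panel) in SCI14d + TM, SCI14d, SCI8d and CTR. Each point is 1 rat, the open diamond is SCI8d replicate 1, the bar is mean ± SD (n = 6) and the grey line marks the CTR mean. In the 3 panels on protein synthesis, breakdown and folding the other 5 SCI8d rats lie above 0 while SCI8d replicate 1 lies below it.

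Mitochondrial and other oxidative lists shifted by less. The median log2 difference was 0.50 over 6 genes of ketone body use and monocarboxylate transport (5 at an unadjusted p, all positive, and 0.81 without SCI8d replicate 1), 0.41 over 20 genes of branched-chain amino acid breakdown (9), 0.28 over 26 genes of complex I (11), 0.26 over 16 genes of the citrate cycle (6), 0.15 over 20 genes of complexes III and IV (3) and 0.078 over 14 of ATP synthase (1 higher and 1 lower, and 0.12 without that array). None of these genes was called with all arrays. Without SCI8d replicate 1 the calls were 1, 2, 1, 2, 0 and 0 in that order, all higher, by the brightest probe set of each gene. A less bright probe set of Uqcrc2, on the list of complexes III and IV, was called without that array (1.52, adjusted p = 0.0166). Bdh1, which turns hydroxybutyrate into acetoacetate, had 332 to 1352 (median 589.7) in SCI14d + TM and 127 to 331 (median 221) in SCI8d. These did not overlap, but the difference of 1.47 did not pass over all probe sets (adjusted p = 0.124). A less bright Bdh1 probe set gave 1.73 (adjusted p = 0.0951), and 1.86 without SCI8d replicate 1 (adjusted p = 0.0432). Perm1 and Esrra, regulators of mitochondrial genes, had differences of 1.17 (adjusted p = 0.226) and 0.53 (adjusted p = 0.227). Over 15 regulators of the PGC-1, ERR and PPAR families the median was 0.30, with 3 higher at an unadjusted p and none called.

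Genes outside fat metabolism that rose included the imprinted long noncoding RNA Meg3, the complement regulator Cfi, the growth factor midkine (Mdk) and the matrix protease Mmp11. Cfi, which inactivates complement on tissues, had signals of 1210.5 to 2422 (median 1779) in SCI14d + TM and 282 to 668 (median 618) in SCI8d. All trained rats lay well above all SCI8d rats, with a log2 difference of 1.76 ± 0.27 SE at an adjusted p = 0.00162, and CTR rats had 1069 to 2315 (median 1422). Mdk had 340.1 to 714 (median 432) in SCI14d + TM, 275 to 572 (median 429) in SCI14d, 179.7 to 269 (median 235) in SCI8d and 151 to 277 (median 228) in CTR. It was above each SCI8d and each CTR rat in trained muscle, with a log2 difference of 1.01 ± 0.19 SE at an adjusted p = 0.0111, and it was also called against CTR (1.08, adjusted p = 0.00453). Among called genes with a symbol Meg3 had the highest log2 fold change, 2.95 (SE 0.65, adjusted p = 0.0449), but was called in only 2 of 12 fits with an array left out. Its signals were 2234 to 15561 (median 4886) in SCI14d + TM and 296 to 1678 (median 823) in SCI8d, and within CTR they differed between 470.5 and 7386. For Mmp11 (a log2 difference of 2.29 ± 0.51 SE at an adjusted p = 0.0474) the signals were 248 to 936 (median 397) in SCI14d + TM and 6.46 to 219 (median 121) in SCI8d, and the low value of 6.46 was SCI8d replicate 2. Without that array the log2 difference of Mmp11 was 1.54 and did not pass, and the gene was called in 3 of 12 such fits.

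Mavs, the adaptor of antiviral signaling on the mitochondrial surface, Trak1, which links mitochondria to the kinesin motor, Cda, the cytidine deaminase of pyrimidine salvage, and Dffa, the inhibitor of the DNase that cuts DNA in apoptosis, were higher as well. Mavs signals were 3229 to 5553 (median 3898) in SCI14d + TM and 745 to 2319.8 (median 1661) in SCI8d, with no overlap (a log2 difference of 1.41 ± 0.25 SE at an adjusted p = 0.0108). Trak1 had 2273 to 2911 (median 2582) in SCI14d + TM and 1108 to 1999 (median 1225) in SCI8d, and the values of trained rats fell within a narrow band (a log2 difference of 0.95 ± 0.17 SE at an adjusted p = 0.00871). Dffa signals were 4097 to 7494 (median 6352) and 2082 to 4072 (median 2323) in these groups, also without overlap, and Cda signals overlapped through SCI8d replicate 1 alone. The log2 fold changes were 1.15 for Dffa and 2.45 for Cda. Others among the 12 highest genes were Prcd, a small protein known from photoreceptor discs (2.49), and the unnamed locus LOC102546992.

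Like Mdk, Acot7 and Trak1, the other named genes that rose lie outside the rule of the 12 highest or were dimmer, and are given because they were called. They were Ccdc158 (1.40), the G protein subunit Gnb3 (1.36), Tango2 (1.13), Plbd1 (1.08), Cobll1 (0.96), Stn1 of the telomere-binding CST complex (0.93), Isoc2b (0.93), the adenylyl cyclase Adcy3 (0.87), the tyrosine sulfotransferase Tpst1 (0.82), the sorting nexin Snx14 (0.73), Zfp592 (0.72), Washc3 of the endosomal WASH complex (0.61), Uvrag, which acts in autophagy and endosome traffic (0.61), and the lysosomal ribonuclease Rnaset2 (0.57), with log2 fold changes in parentheses. Stn1 and Zfp592 have other probe sets with a negative sign (-0.0050 for Stn1, -0.15 and -0.68 for Zfp592), none of them called. Of 16 genes of autophagy and lysosome fixed as a list, none was called and 2 were higher at an unadjusted p.

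Nmrk2, a muscle kinase that makes NAD from nicotinamide riboside, had the lowest log2 difference of the called genes with a symbol, and Slc29a2, a nucleoside transporter, fell in both of its called probe sets. Nmrk2 signals were 522 to 2179 (median 810.2) in SCI14d + TM and 1603 to 18766 (median 6810.5) in SCI8d, where the lowest was replicate 1. The log2 difference was -2.84 ± 0.64 (SE, adjusted p = 0.0474), or -3.24 without that array (adjusted p = 0.00885), and the call was lost when any other of the 12 arrays was left out. CTR had 1368 to 5746 (median 2474). Slc29a2 signals were 348 to 615 (median 537) in SCI14d + TM, 705 to 1585 (median 1366) in SCI8d and 242 to 703 (median 488) in CTR. Trained rats lay below all SCI8d rats and within the range of CTR (a log2 difference of -1.28 ± 0.26 SE at an adjusted p = 0.0285), and the second probe set gave -0.87. The transcription factor Klf5, represented by a called probe set that is not its brightest, had a log2 fold change of -1.98, while its brightest gave -1.22 and was not called (adjusted p = 0.19). The transcription factor Mafa (-1.18) and the interferon-inducible Ifi27l2b (-1.76) fell too. Ifi27l2b signals were 1873 to 4221 (median 2996) in SCI14d + TM and 3758 to 39600.0 (median 6990.2) in SCI8d. This gene belongs to a family of similar copies, so its probe set may read more than 1 of them, and of 19 genes of the interferon response none was called (3 higher and 0 lower at an unadjusted p).

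Ankrd1, a stretch-induced sarcomere protein, had signals of 659 to 8129.5 (median 2418) in SCI14d + TM, 1534 to 25205 (median 8031) in SCI14d, 1915 to 36664 (median 18213) in SCI8d and 704 to 3765 (median 2707) in CTR. The lowest SCI8d value, 1915, was replicate 1, and the other 5 were at least 11946, higher than each trained rat. With all arrays the difference of -2.66 did not pass (adjusted p = 0.0991), and without replicate 1 it was -3.24 (adjusted p = 0.0156). Over 11 stretch-responsive sarcomere genes the median was -0.31, with 0 called and 3 lower at an unadjusted p.

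Cct6a and Cct7, subunits of the CCT chaperonin (the ring complex, also called TRiC, that folds actin and tubulin), fell, as did Rbm8a of the exon junction complex, the RNA helicase Ddx1, Nufip2, which binds RNA, and Sem1, a small subunit of the proteasome lid. Cct6a signals were 3142 to 4048 (median 3957) in SCI14d + TM and 3907 to 9019 (median 7509) in SCI8d. The groups overlapped through SCI8d replicate 1 alone, and the log2 difference was -0.85 ± 0.19 (SE, adjusted p = 0.0474). Cct7 signals were 4986 to 6165 (median 5508) in SCI14d + TM, 5925 to 6828 (median 6552) in SCI14d, 6358 to 8448 (median 7464) in SCI8d and 5851 to 6648 (median 6108) in CTR. They did not overlap between trained and SCI8d rats (a log2 difference of -0.45 ± 0.10 SE at an adjusted p = 0.0474). All 8 measured subunits had negative differences, from -0.85 to -0.35 with a median of -0.42, and 8 passed an unadjusted p. The values were -0.74 for Cct3, -0.50 for Cct8, -0.39 for Tcp1, -0.38 for Cct4, -0.38 for Cct5 and -0.35 for Cct2, none of these 6 called. Without SCI8d replicate 1, 5 of the 8 were called. The set was chosen after its values were seen and has no test. With arrays scaled to Gapdh its median was -0.20, still with 8 of 8 below 0.

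Of the remaining lower genes, Ddx1 had signals of 6704 to 6939 (median 6857) in SCI14d + TM and 8409.5 to 9156 (median 8679) in SCI8d, a small change of -0.36 with a narrow spread and no overlap. Rbm8a (-0.49), Sem1 (-0.49) and Nufip2 (-0.64) did not overlap either. Ssb, the La protein that binds new RNA polymerase III transcripts (-0.38, adjusted p = 0.0503), and Sync, a binding partner of desmin filaments (-0.94, adjusted p = 0.0657), had the next smallest p and did not pass.

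The promoters of the 2 called chaperonin genes are shown because both genes fell and both windows hold the CCAAT box, the letters that the factor NF-Y binds, and the promoter of Pank1 is shown as that of a gene that rose and holds it too. The 300 bases run from 250 before to 50 after the annotated start, 5′ to 3′, from RefSeq (GRCr8), and capitals mark CCAAT or its reverse complement ATTGG.
Cct6a, chr12:32519023-32519322, minus strand: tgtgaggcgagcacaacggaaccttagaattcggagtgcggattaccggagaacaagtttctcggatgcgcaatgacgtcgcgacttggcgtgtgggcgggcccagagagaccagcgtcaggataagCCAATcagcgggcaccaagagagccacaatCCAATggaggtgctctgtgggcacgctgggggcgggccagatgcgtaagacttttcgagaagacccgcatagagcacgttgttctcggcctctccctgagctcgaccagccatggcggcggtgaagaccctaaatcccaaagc
Cct7, chr4:119546480-119546779, plus strand: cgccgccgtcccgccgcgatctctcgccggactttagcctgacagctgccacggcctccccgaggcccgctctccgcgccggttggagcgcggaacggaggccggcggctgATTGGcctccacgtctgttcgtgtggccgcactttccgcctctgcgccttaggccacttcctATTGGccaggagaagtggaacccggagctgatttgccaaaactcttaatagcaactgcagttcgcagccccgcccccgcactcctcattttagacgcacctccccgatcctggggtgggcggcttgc
Pank1, chr1:241806414-241806713, minus strand: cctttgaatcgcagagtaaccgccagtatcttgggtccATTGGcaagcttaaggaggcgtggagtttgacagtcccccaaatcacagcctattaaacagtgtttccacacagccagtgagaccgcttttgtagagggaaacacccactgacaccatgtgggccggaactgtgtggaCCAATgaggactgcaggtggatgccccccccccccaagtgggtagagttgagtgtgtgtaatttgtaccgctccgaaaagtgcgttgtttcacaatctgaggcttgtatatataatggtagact
RefSeq windows were found for 24 of 29 higher and 10 of 12 lower called genes. CCAAT, read on both strands, was in 8 of 24 and 7 of 10 of them, against 37.5% of all 33469 windows. CANNTG (the E-box) was in 16 of 24 and 7 of 10 (72.1% of all), TTTGAA in 4 and 0 (18.3%), TATAAA in 2 and 2 (14.2%), and AAGGTCA and TGACTCA in none of the 34 (4.6% of all each). These are matches of letters, and none was tested for binding.

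Larger lists of the same kind had small negative medians. Over 14 cytosolic ribosomal proteins the median log2 difference was -0.28, with 14 of 14 below 0, 11 of them at an unadjusted p, none called with all arrays and 4 called lower without SCI8d replicate 1. Rpl4 signals were 21987 to 25032 (median 23604) in SCI14d + TM and 23148 to 37489.8 (median 32641) in SCI8d (-0.42, adjusted p = 0.121, and 0.0221 without that array). Ribosomal protein genes have many processed copies, so their probe sets can read several. The median was -0.32 over 17 heat shock proteins and chaperones (17 below 0, 6 at an unadjusted p), -0.32 over 19 genes of ribosome biogenesis (9 lower at an unadjusted p), -0.20 over 20 translation factors (5) and -0.18 over 30 proteasome subunits (30 below 0, 7 at an unadjusted p). None of these genes was called with all arrays, and 0, 0, 2 and 1 were called without SCI8d replicate 1. With arrays scaled to Gapdh, which put the median of all probe sets at 0.24, the medians were -0.06 for ribosomal proteins, -0.10 for heat shock proteins, -0.10 for ribosome biogenesis, 0.02 for translation factors and 0.04 for proteasome subunits, so the last 2 turned positive. This scaling shifts every probe set by the same amount, and each list kept its distance from the median of all probe sets. On the ribosomal protein list SCI14d + TM rats had a mean level of -0.030 ± 0.091 relative to CTR and SCI8d rats of 0.28 ± 0.20 (log2, SD, n = 6 each). The 5 SCI8d rats other than replicate 1 lay above 0.

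**Figure D3:**
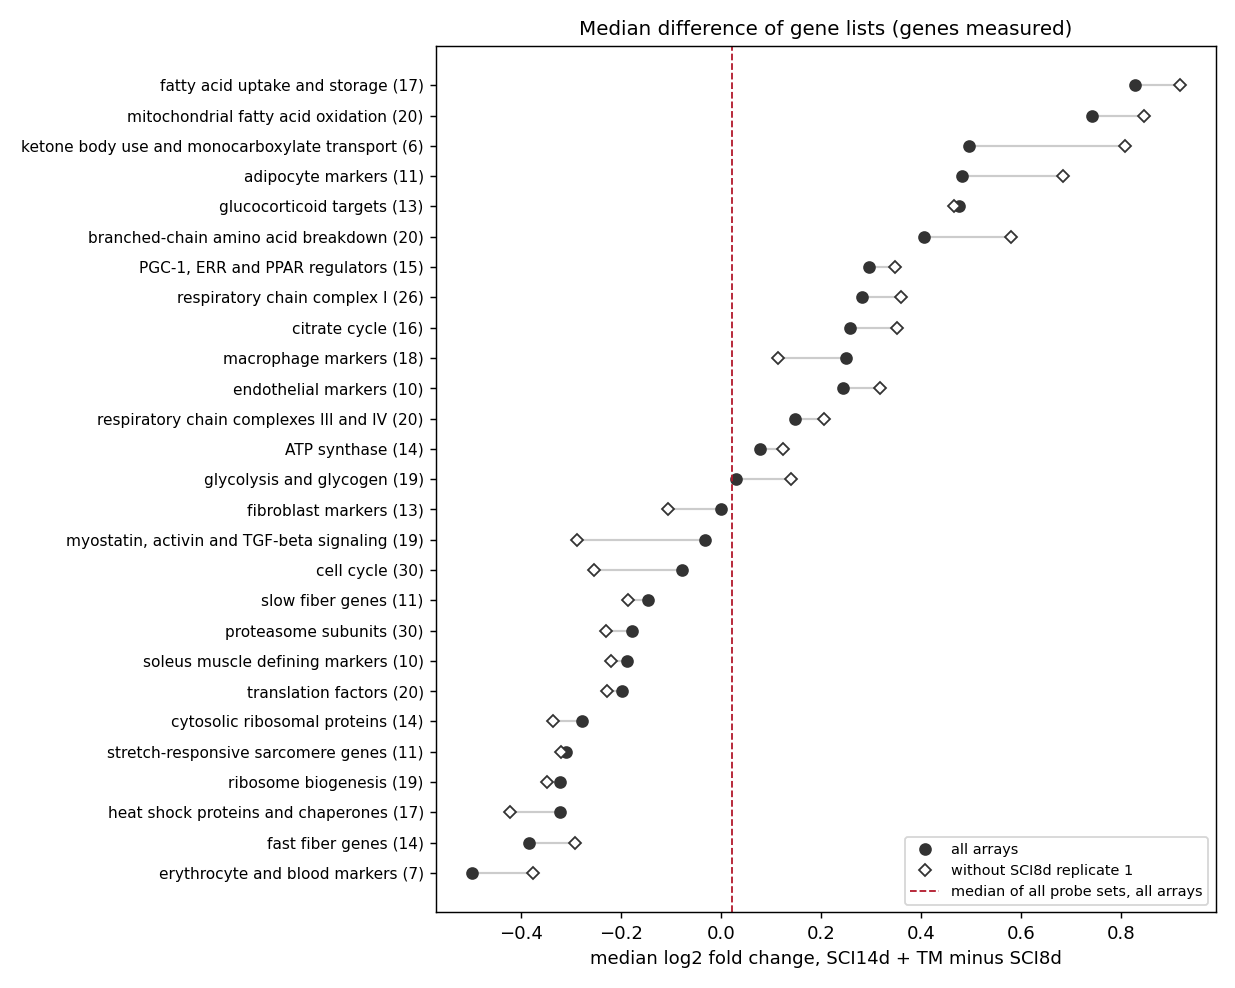
Median log2 difference (x axis) of 27 gene lists between SCI14d + TM and SCI8d, with the number of genes measured in parentheses. Filled circles are all arrays, open diamonds leave out SCI8d replicate 1, and the dashed line is the median of all probe sets (0.021). Lists of fat and oxidative metabolism lie to the right and those of folding, translation and the proteasome to the left. With arrays scaled to Gapdh the medians of slow fiber genes, cell cycle, proteasome subunits, translation factors, TGF-beta signaling, fibroblast markers and soleus markers were above 0, a shift that was the same for every probe set and put the median of all probe sets at 0.24.

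Of the genes of muscle growth signaling and fiber type, Smad3 was the only one on the lists to pass with all arrays. Smad3 carries the signals of myostatin, activin and TGF-β into the nucleus. Its signals were 1509 to 3286 (median 2506) in SCI14d + TM, 2651 to 5106 (median 3179) in SCI14d, 3262 to 5162 (median 3723) in SCI8d and 2629 to 3625 (median 2938) in CTR. Trained rats overlapped SCI8d rats by 1 value, with a log2 difference of -0.74 ± 0.17 SE at an adjusted p = 0.0493, and the call stood in 2 of 12 fits with an array left out. It was the 1 gene called of 19 of the myostatin, activin and TGF-β list, whose median was -0.032 (-0.29 without SCI8d replicate 1). Of 21 genes of BMP signaling none was called (1 higher at an unadjusted p). Fst, the follistatin that blocks myostatin, had 306 to 876 (median 602) in SCI14d + TM and 547 to 1103 (median 819.9) in SCI8d, a difference of -0.53 that did not pass (adjusted p = 0.356).

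Smad3 and Fabp3 were the 2 called of 23 genes that the study singled out on these arrays, and 8 of the 23 passed an unadjusted p. The study named them from other comparisons, of injured days with control and of trained with untrained rats on the same day. It used an unadjusted p, so these counts do not repeat its tests. Myog and Myf6, myogenic transcription factors, had differences of -0.65 (adjusted p = 0.349) and -0.37 (adjusted p = 0.344). The fast myosin gene Myh4 had 53.3 to 1297 (median 189) in SCI14d + TM and 222 to 13252 (median 632) in SCI8d, a wide scatter in both groups, and a difference of -2.05 (SE 1.12, adjusted p = 0.464). Mybph, a myosin-binding protein, had 8542 to 24421 (median 14334) in SCI14d + TM and 10532 to 52427 (median 31701) in SCI8d, against 1336 to 5835 (median 2115) in CTR, so both injured groups lay above every control, and its difference was -1.09 (adjusted p = 0.436). Cox7a2l and Cox8a, proteins of the respiratory chain, had 0.29 and 0.21 (adjusted p = 0.249 and 0.384). The remaining 13 genes lay between -0.61 and 0.60, with none past an unadjusted p. Trim63, the ubiquitin ligase MuRF1, had 3630.4 to 4922 (median 3894) in SCI14d + TM, 5274 to 9383 (median 7435) in SCI14d and 4387 to 8972 (median 5838) in SCI8d, a difference of -0.61 (adjusted p = 0.143) with a training step of -0.80 and an untrained step of 0.19. Of 23 muscle ubiquitin ligases and atrophy genes none was called, with 1 higher and 4 lower at an unadjusted p.

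The 2 steps that make up the difference had almost no calls of their own. In limma the training step had 1 call (0.00322%, 1849 at an unadjusted p), a probe set without a symbol, and the untrained step 0 (0%, 2717 at an unadjusted p), or 5 (0.0161%) without SCI8d replicate 1. Both steps use the SCI14d arrays, and each shares a group with the whole difference, so the values are given side by side. SCI14d replicate 4, which stood apart from its group, is in both steps, and values without it are not given. Genes of fat metabolism had training steps of 1.21 for Fabp3, 1.59 for Aqp7, 0.88 for Acot7 and 0.82 for Pank1, and untrained steps of 0.44, 0.97, 0.11 and 0.69 in that order. For Bdh2 the untrained step (0.81) was larger than the training step (0.47). Stn1 and Plbd1 lay mostly in the training step (0.95 and 0.94, with untrained steps of -0.02 and 0.13). Mdk, Ccdc158, Ifi27l2b and Slc29a2 lay mostly in the untrained step (0.89, 1.17, -1.43 and -1.04, with training steps of 0.13, 0.23, -0.34 and -0.24). None of these single steps was called. The oxidation list had median steps of 0.39 with training and 0.34 without, the uptake list 0.17 and 0.44, and the ribosomal protein list 0.044 and -0.32.

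**Figure D4:**
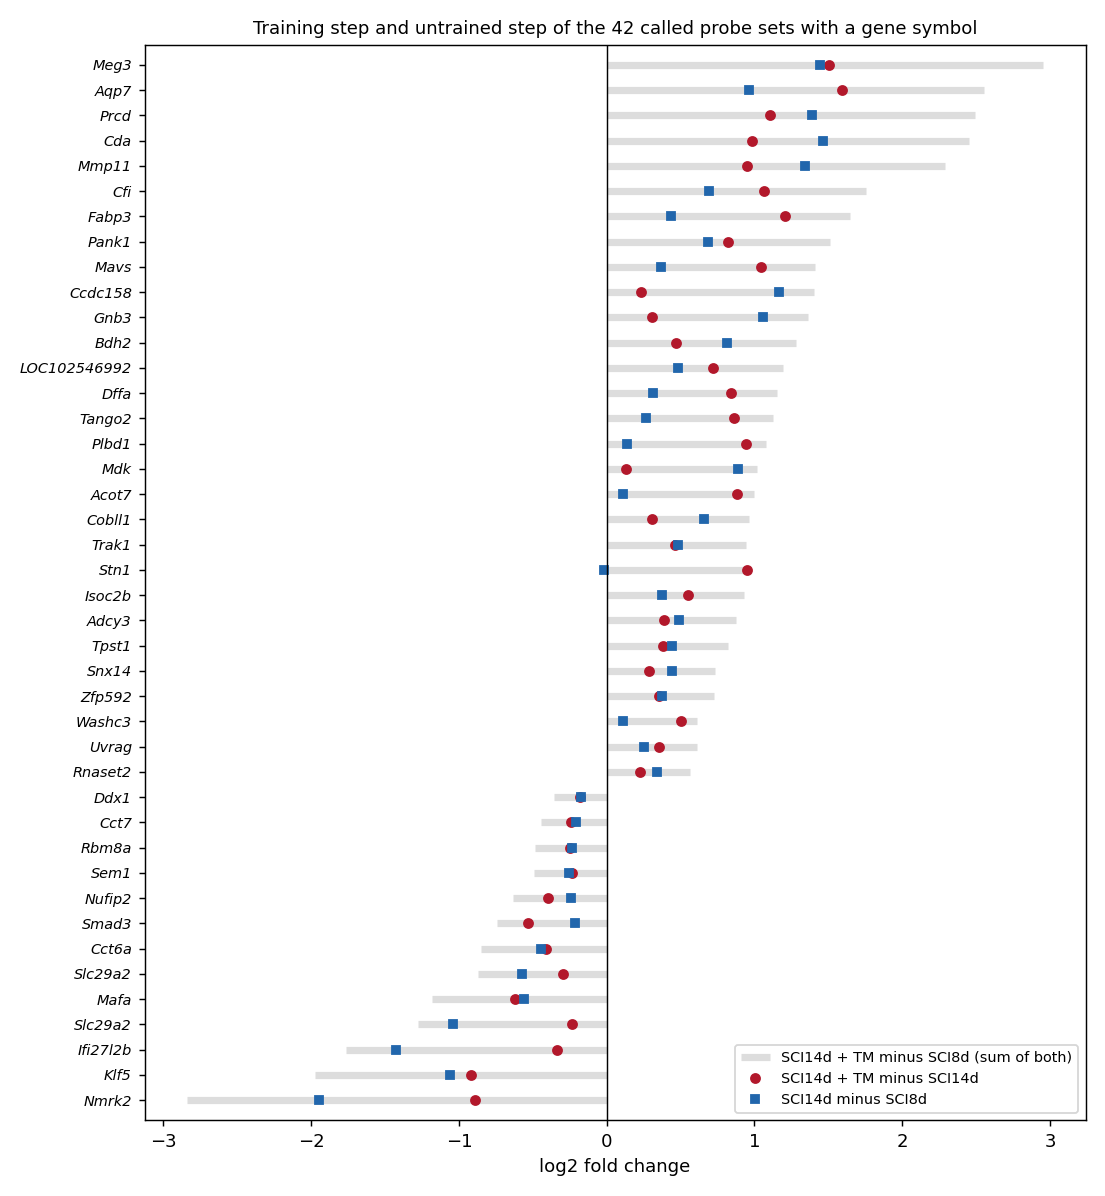
log2 fold changes (x axis) of the 42 called probe sets with a gene symbol, sorted by size. The grey bar is SCI14d + TM minus SCI8d, the red circle its training step (SCI14d + TM minus SCI14d) and the blue square its untrained step (SCI14d minus SCI8d), and the 2 steps add up to the bar. Fabp3 lies mainly in the training step, Nmrk2 mainly in the untrained step, and for many genes the 2 steps are of like size.

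Seen against uninjured muscle, 4 of the 59 called probe sets differed in SCI14d + TM and 42 in SCI8d (limma, adjusted p of 0.05). In all, 111 probe sets were called in SCI14d + TM against CTR (0.358%) and 1952 in SCI8d against CTR (6.29%), or 3398 (10.9%) without SCI8d replicate 1. These contrasts share the CTR arrays and each shares a group with the main comparison, by which the 59 were chosen. The untrained SCI14d group was not tested against CTR here, so these counts do not separate training from time. Fabp3 was -0.42 in SCI14d + TM and -2.07 in SCI8d relative to CTR (adjusted p = 0.693 and 0.000958), Aqp7 was -1.09 and -3.64 (adjusted p = 0.422 and 0.000215), and Cfi was 0.18 and -1.58 (adjusted p = 0.844 and 0.000578). A p that misses the threshold does not show that trained muscle was at the control level. Mmp11 was 2.11 in SCI14d + TM and -0.18 in SCI8d relative to CTR (adjusted p = 0.0558 and 0.885), and Nmrk2 was -1.61 and 1.23 (adjusted p = 0.29 and 0.27).

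Macrophage markers had a median log2 difference of 0.25, with 17 of 18 above 0 (52.2% of all probe sets were), 0 called and 0 at an unadjusted p. Without SCI8d replicate 1 the median was 0.11, with 11 of 18 above 0. Their summed signal was 48805 to 82167 in SCI14d + TM and 34810.1 to 81508 in SCI8d. Fibroblast markers had a median of -0.0013 over 13 genes (-0.11 without that array) and endothelial markers of 0.24 over 10, with 0 called in either and 0 and 1 at an unadjusted p. For 7 blood markers the median was -0.50, with all 7 below 0 and none past an unadjusted p, and the summed signals overlapped (35733 to 73568 in SCI14d + TM, 47188 to 114521 in SCI8d). The 10 soleus markers, at a summed signal of 438979.8 to 539525 in SCI14d + TM and 423217 to 755957 in SCI8d, had a median of -0.19 (0.02 after quantile normalization) with none past an unadjusted p. Slow fiber genes had a median of -0.15 (0.077 after quantile normalization), fast fiber genes of -0.38 and 30 cell-cycle genes of -0.079 (-0.25 without SCI8d replicate 1). None of them was called. At an unadjusted p 1 slow fiber gene was higher, 2 fast fiber genes were lower and 1 cell-cycle gene was lower. The part of other cells in the called genes was not tested.

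Of the 17 called probe sets without a symbol 2 are described. Probe set 1376522_at had 1107 to 2749.8 (median 1713) in SCI14d + TM, 326 to 1863 (median 990.3) in SCI14d, 134 to 577 (median 204) in SCI8d and 894 to 3818 (median 3241) in CTR, with a log2 difference of 2.88 ± 0.39 SE at an adjusted p = 0.000378. Probe set 1380971_at had 5.40 to 15.8 (median 13.2) in SCI14d + TM, 44.5 to 156 (median 86.9) in SCI14d, 20.2 to 306 (median 99.9) in SCI8d and 57.6 to 147 (median 79.9) in CTR, so every trained rat lay below every rat of the other 3 groups, at signals below the 40th percentile on average, with a log2 difference of -2.97 ± 0.42 SE at an adjusted p = 0.000486. It was the 1 probe set called in the training step (-2.85, adjusted p = 0.00225). Both were singled out after their values were seen, and both were called in each of the 12 fits with an array left out.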

How the data were processed

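The deposited values are linear signal intensities, which the authors made from each scanned array with Microarray Suite and scaled by 1 factor per array. Without its outer 2% of values each array here had a mean of about 800. The table holds 31099 probe sets, which the methods describe as those with at least 4 present calls. The 57 control probe sets were left out, which left 31042, of which 20826 carry 1 gene symbol, 436 several and 9780 none. Symbols came from the platform annotation. A gene with more than 1 probe set was represented by its brightest over all 36 arrays. No counts underlie these signals, so the number of arrays limits the precision.

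Signals were taken to log2 and tested in limma 3.58.1 (R 4.3.3), in a linear model of the 6 groups (30 residual degrees of freedom) with an intensity trend, with Benjamini-Hochberg adjustment over the 31042 probe sets. Calls were made at 0.05. Replicates are separate rats. The exact permutation test of 6 against 6 arrays (924 arrangements, two-sided) gave p of 0.00216 to 0.0152 for the called probe sets, 0.00216 being the smallest it can give. The methods of the study name a t-test at an unadjusted p, which was an alternative here.

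Lists of genes were described by counts and medians only. Genes of a list can move together within an array, so counts above or below 0 are not counts of independent results. The groups compared, the 50 lists and the rule for named genes were chosen with earlier results of these data known. The rule takes the 12 highest and 12 lowest called genes brighter on average than the 40th percentile (filled with the next by p where fewer were called), up to 4 genes of a list by p, and the genes the study named. Promoter windows were matched by symbol to RefSeq (GRCr8). The procedure was run on simulated arrays with independent noise for each probe set. These held no outlying array and no genes that move together, so the run does not cover those features of the data. Alternatives were other scalings, adding 32 before log2, dropping the dimmest 40%, no trend, array weights, the 2 groups alone, the replicate number, a term for replicates 5 and 6, the GAPDH ratio as a covariate, 1 probe set a gene, other probe sets and each array left out. Plots used matplotlib 3.10.9 in Python 3.11.15. Detection calls, muscle weights and RT-qPCR were not analysed here.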

Additional observations from a re-analysis of the deposited data

Results flagged for a closer look

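In each group of 6 rats the highest and the lowest log2 signal of every gene named with values was compared with the other rats by Dixon's ratio, the gap to the nearest rat over the whole range. Of 180 gene and group pairs 15 passed (8.33%). The limit flags about 1 in 20 independent sets of values, but these pairs share arrays and many of the genes move together. That rate is therefore no reference here. SCI8d replicate 1 was the array in 11 of the 15. Some of these genes, Tubb4b among them, were named because they were called without that array, so its share was partly set by that choice. It was the highest rat of SCI8d for Isoc2b (ratio 0.743), Tango2 (0.626), Rnaset2 (0.678), Cd36 (0.657), Cpt2 (0.654) and Etfdh (0.630), and the lowest for Slc29a2 (0.640), Cct2 (0.633), Cct8 (0.739), Tubb4b (0.819) and Ssb (0.802). SCI8d replicate 2 was the lowest for Mmp11 (0.775) and Oxct1 (0.677) and the highest for Nop58 (0.673). In SCI14d + TM 1 value was flagged, the highest Rbm8a signal in replicate 5 (0.701). For Isoc2b the SCI8d replicate 1 signal was 1629 and the next 783, for Cd36 18605 and 9217, and for Etfdh 7138 and 3664. The report gives results with and without this array.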

How the results depend on the processing

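The count of 59 calls became 21 with median centring, 18 without the intensity trend and 5 with the methods' t-test after adjustment, and 245 with scaling to Gapdh and 594 with array weights, which gave SCI8d replicate 1 a weight of 0.516. Of these, 21, 17, 2, 41 and 59 were among the 59. The lowest weight of all arrays, 0.481, was that of SCI14d replicate 4. The other alternatives gave 43 to 74 calls. With the replicate block the count was 43, of which 38 were among the 59. With the 2 groups alone it was 46, of which 27 were among the 59. There 25 of the 42 called probe sets with a symbol lost the call. Most same-numbered arrays of the groups did not deviate together (correlations from -0.28 to 0.52, with 2 of 6 arrays closest to their own number). The numbers were therefore not taken as pairs. The exception was replicate 1, at 0.52. With an array left out the count was 9 to 418, the share higher 50.7 to 75.0% and the count at an unadjusted p 2855 to 4781. The share higher of 57.6% became 97.1% with scaling to Gapdh, 69.6% with the 2 groups alone, 75.9% with 1 probe set a gene and 80.0% with the methods' t-test, and with 1 probe set a gene 2014 of 14217 passed an unadjusted p, fewer because fewer were tested. No direction of a named gene was reversed by scaling, model or a left-out array. Of the other probe sets of called genes 19 kept the direction without a call, 2 kept the call and 3 were reversed (-0.0050 for Stn1, -0.15 and -0.68 for Zfp592), and of the genes not called 1 was (-0.48 for Acsl1). Where not stated, the cause of a change was not tested. Precision is limited by 6 rats per group and by dim probe sets, of which 4 of the 59 lay below the 40th percentile of signal.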

Other observations

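Some gene groups had steps of opposite sign. Of 19 AP-1 and immediate early genes none was called and 1 was higher at an unadjusted p, and their median log2 difference was 0.13 (12 above 0), or -0.013 (9 above 0) without SCI8d replicate 1, with a training step of -1.03 and an untrained step of 1.12. For 7 tendon and cartilage markers the median was -0.22, with steps of -1.004 and 0.66. Both steps use the same SCI14d arrays, which enter them with opposite signs. S100a8 and S100a9, proteins that neutrophils carry in quantity, were scattered. S100a9 signals were 1030.2 to 23259.8 (median 7294) in SCI14d + TM, 1081 to 25398 (median 12264) in SCI14d, 404 to 2626 (median 849) in SCI8d and 154 to 23062 (median 1013) in CTR, and the difference of 2.60 did not pass (adjusted p = 0.272). Of 13 neutrophil and lymphocyte markers none was called and 3 were higher at an unadjusted p.

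Without SCI8d replicate 1 the lower genes included members of 2 families not listed above, chosen after their values were seen. Of 19 cytosolic aminoacyl-tRNA synthetases, which load amino acids onto tRNAs, 17 had negative differences with all arrays (median -0.31, 10 at an unadjusted p, 0 called), and 6 were called without that array, among them Tars1 at -0.70 (adjusted p = 0.0156) and Kars1 at -0.56 (adjusted p = 0.0175). Of 10 tubulins 7 were negative (median -0.67, 5 at an unadjusted p, 0 called), and 3 were called without it, with Tubb4b at -1.40 (adjusted p = 0.00463). With all arrays Tubb4b had -1.12 (adjusted p = 0.086). Glucocorticoid targets had a median of 0.48 over 13 genes, 3 higher and 1 lower at an unadjusted p and 0 called, with Per1, a clock gene and glucocorticoid target, at 979.9 to 1196 (median 1117) in SCI14d + TM and 321 to 793 (median 551) in SCI8d without overlap (1.02, adjusted p = 0.137). The hour of muscle collection relative to the light cycle was not analysed here.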
